A study of Mus musculus with 12 samples.

Results

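Among the 90752 probes of the array, 7 met a rule for RNAs that are bright in the uninjured nerve, hold their level at day 3 after a crush and stand low at both later times. They were chosen on the deposited log2 signals, averaged over the 3 arrays of a day. The rule asked for a day 0 mean of at least 9, a day 3 mean within 0.5 of it, means at least 1.5 below it at both day 7 and day 14, and a signal well above background on every day 0 and day 3 array. Of the 14953 probes that met the first, second and last of these conditions, 12 were lower by 1.5 or more at day 7, 34 at day 14 and 7 at both, while 12 were higher by that much at both. Counts of RNAs below are counts of probes, some of which overlap in sequence. Each of the 7 RNAs is read by a single 60-base probe and is called here by the probe's ID, because the files and tables used here pair these IDs with no gene. The 7 probes passed the scanner's background test on each of the 12 arrays.

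The samples were sciatic nerve of C57Bl6 mice about 2 months old at 4 times, day 0, day 3, day 7 and day 14 after a crush of the right nerve in the upper thigh, with a ligature left at the crush site as a marker. Each time had 3 arrays, and the RNA on each array was a pool from 6 mice, so 18 mice stood behind a time and 72 behind the study. The tissue was the nerve segment distal to the crush, and no sham-operated group is among the samples used here. The labels describe the pools as biological replicates. The defining markers of nerve, muscle, fat and blood cells could not be checked, since no probe could be named.

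After a crush, axons beyond the injury degenerate, a process called Wallerian degeneration. Schwann cells, the glia that wrap these axons, break down their myelin and take on a repair state, macrophages enter to clear debris, and regrowing axons are later remyelinated. Long noncoding RNAs are transcripts with no evident protein product, and many are expressed in only some cell types or states, so their levels in a whole nerve can follow both the cells present and what those cells transcribe. In pooled whole tissue, fewer cells of a type and less of an RNA per cell cannot be told apart.

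The probe sequences are the only identity these RNAs have here, and they are shown in the order in which the signals are described. The first 3 are those whose day 7 level lay below day 0 by more than the rule's threshold among arrays of slide 2. Capitals in MOUSELNCRNA_20672 mark the 33 bases it shares with MOUSELNCRNA_22069, a probe outside the rule that is shown because it reads overlapping sequence.
MOUSELNCRNA_30099: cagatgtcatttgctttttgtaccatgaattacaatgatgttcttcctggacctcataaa
MOUSELNCRNA_20672: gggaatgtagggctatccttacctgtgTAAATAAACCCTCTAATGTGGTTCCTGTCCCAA
MOUSELNCRNA_22069: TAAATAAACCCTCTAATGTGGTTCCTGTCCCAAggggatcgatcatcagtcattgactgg
MOUSELNCRNA_17722: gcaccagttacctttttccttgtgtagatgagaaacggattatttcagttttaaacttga

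The other 4 are those whose day 0 and day 3 arrays on slide 2 were dimmer than those on slide 1. Capitals in MOUSELNCRNA_21677 and in MOUSELNCRNA_89043, a near-copy outside the rule, mark the 3 bases at which they differ over 54 aligned bases.
MOUSELNCRNA_3432: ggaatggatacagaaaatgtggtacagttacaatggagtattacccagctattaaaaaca
MOUSELNCRNA_41: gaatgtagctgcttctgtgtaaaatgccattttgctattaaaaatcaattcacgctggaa
MOUSELNCRNA_21677: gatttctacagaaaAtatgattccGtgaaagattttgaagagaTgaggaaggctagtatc
MOUSELNCRNA_89043: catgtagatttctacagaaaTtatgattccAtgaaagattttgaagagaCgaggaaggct
MOUSELNCRNA_69031: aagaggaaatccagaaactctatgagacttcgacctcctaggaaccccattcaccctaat

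The 12 arrays lay on 3 slides, as read from the files, and the days were not spread evenly over them. Slide 1 held replicates 1 and 2 of day 0 and of day 3. Slide 2 held replicate 3 of day 0, replicate 3 of day 3 and replicates 2 and 3 of day 7. Slide 3 held replicate 1 of day 7 and all of day 14. Arrays of slide 1 had 73.7 to 79.5% of their spots well above background, those of slide 2 had 66.7 to 71.5% and those of slide 3 had 64.2 to 67.5%. No spot was saturated. The deposited columns labelled replicates 2 and 3 of day 7 each correlated more highly with the scanner array of the other label (0.9998 and 0.9999) than with their own (0.9932 and 0.9928). Both arrays lie on slide 2, so means by day or by slide are the same either way. Per-array log2 signals below are those of the deposited table, in its order of replicates.

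Across the 7 RNAs day 7 minus day 0 ranged over -2.38 to -1.53 on the log2 scale with a median of -1.99, and day 14 minus day 0 ranged over -2.41 to -1.53 with a median of -2.19. These differences chose the RNAs and carry no test. For scale, 24.0% of the 62803 probes tested passed as lower in the day 7 against day 0 comparison, and 29.0% did so for day 14 against day 0 (limma, Benjamini-Hochberg adjusted p below 0.05). Slide 2 was the only slide with arrays of both day 0 and day 7, and it held 1 array of day 0. That array and the day 7 arrays of slide 2 are among those the rule averaged. Within it, day 7 minus day 0 was -2.60 to -2.20 for 3 of the 7 RNAs and -0.80 to -0.25 for the other 4. For those 4 the label of a bright RNA with delayed loss did not hold at the rule's size among slide 2 arrays. Day 7 was still the lower day. Among the 14953 bright RNAs with a flat day 3, the 5th to 95th percentiles of this within-slide difference were -0.50 to 0.56. MOUSELNCRNA_3432 (-0.30) and MOUSELNCRNA_21677 (-0.25) lay inside that range, and MOUSELNCRNA_41 (-0.55) and MOUSELNCRNA_69031 (-0.80) lay below it. The rule chose RNAs low at day 7, partly on these same arrays, so their place in this range is a description with no test. No slide held both day 14 and day 0, so the later time could not be read within a slide.

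**Figure D1:**
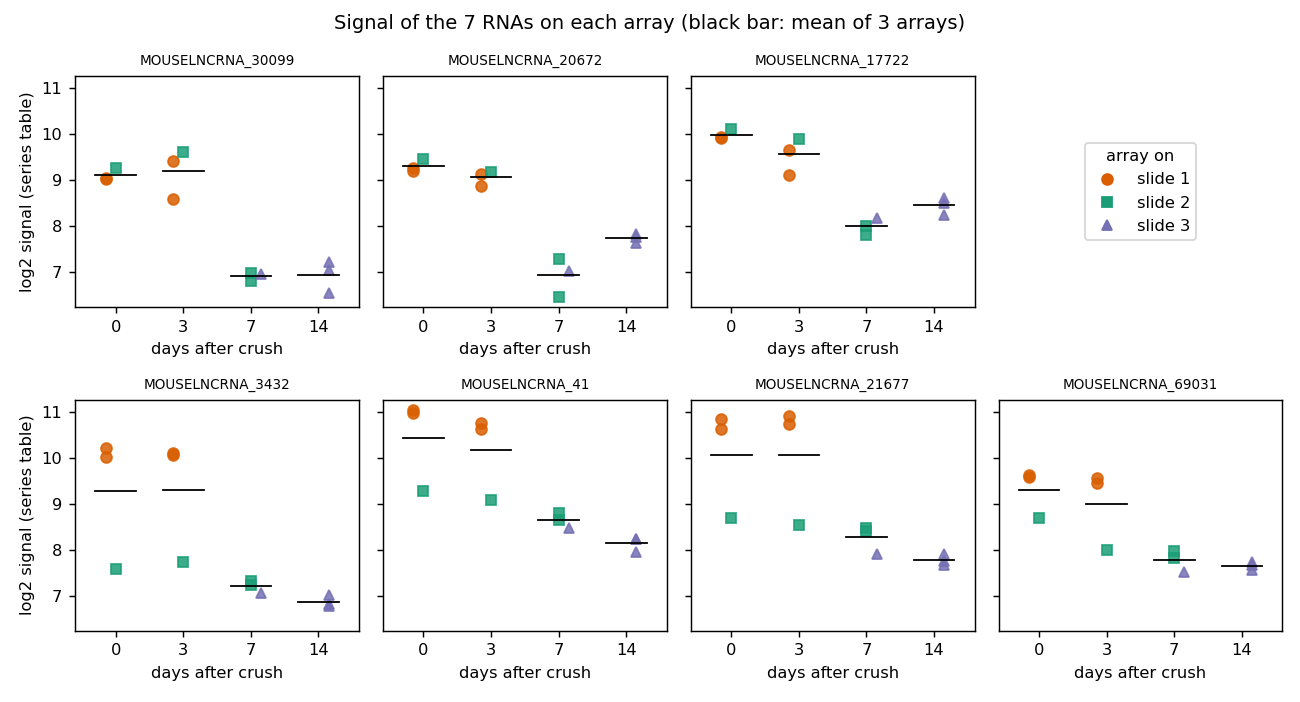
Each point is the deposited log2 signal of 1 RNA on 1 array, plotted by days after crush, with colour and shape for the slide and a black bar for the mean of the 3 arrays of a day. The upper 3 RNAs had day 0 and day 3 arrays of both slides together near 9 to 10, while the lower 4 had slide 1 arrays high and slide 2 arrays low within the same day.

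MOUSELNCRNA_30099 was high at day 0 and day 3 on both slides and low afterwards. Its log2 signal was 9.05, 9.03 and 9.27 at day 0, 9.42, 8.59 and 9.61 at day 3, 6.96, 6.98 and 6.80 at day 7, and 7.04, 7.21 and 6.54 at day 14. No array of the later days came within 1 log2 unit of an array of the earlier days. The day 7 mean was 6.91 ± 0.10, against 9.12 ± 0.14 at day 0 (SD, n = 3 each), which is 4.61-fold lower, and the day 14 mean of 6.93 ± 0.35 was 4.55-fold below day 0. Among slide 2 arrays alone, the day 7 arrays averaged 6.89 against 9.27 on the day 0 array, a difference of -2.39.

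MOUSELNCRNA_20672 had the lowest day 7 mean relative to day 0 of the 7. Its log2 signal was 9.26, 9.19 and 9.47 at day 0, 8.87, 9.14 and 9.18 at day 3, 7.02, 7.29 and 6.46 at day 7, and 7.64, 7.83 and 7.76 at day 14. All 3 day 14 arrays lay above all 3 day 7 arrays, and both sets lay below every earlier array. The day 7 mean of 6.92 ± 0.42 was 5.22-fold below the day 0 mean of 9.31 ± 0.15, and the day 14 mean of 7.74 ± 0.10 was 2.96-fold below it (SD, n = 3 each). Within slide 2, day 7 minus day 0 was -2.60, or 6.05-fold lower.

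MOUSELNCRNA_22069, which shares 33 bases with MOUSELNCRNA_20672 on the same strand, had the same order of days at a lower signal. Its means were 7.75 ± 0.07 at day 0, 7.49 ± 0.12 at day 3, 6.10 ± 0.18 at day 7 and 6.63 ± 0.08 at day 14 (SD, n = 3 each). It was too dim at day 0 for the rule, and its day 14 minus day 0 difference was -1.12. Within slide 2 its day 7 minus day 0 difference was -1.59. Since the probes overlap, they are not independent readings of separate RNAs.

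MOUSELNCRNA_17722 was the brightest of these 3. Its log2 signal was 9.94, 9.92 and 10.10 at day 0, 9.65, 9.12 and 9.91 at day 3, 8.18, 8.00 and 7.80 at day 7, and 8.49, 8.61 and 8.25 at day 14. Day 3 minus day 0 was -0.43, and the later arrays all lay below the lowest day 3 array. The day 7 mean of 7.99 ± 0.19 was 3.98-fold below the day 0 mean of 9.99 ± 0.10, and the day 14 mean of 8.45 ± 0.19 was 2.90-fold below it (SD, n = 3 each). Within slide 2 the difference between day 7 and day 0 was -2.20.

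For these 3 RNAs, day 7 minus day 3 within slide 2 was -2.72 for MOUSELNCRNA_30099, -2.30 for MOUSELNCRNA_20672 and -2.00 for MOUSELNCRNA_17722. The deposited values were also fitted with slide as a fixed block. Day 7 minus day 0 was then -2.51 for MOUSELNCRNA_30099 (SE 0.31), -2.57 for MOUSELNCRNA_20672 (SE 0.25) and -2.32 for MOUSELNCRNA_17722 (SE 0.21). The same fit gave day 14 minus day 0 of -2.54 (SE 0.46), -1.85 (SE 0.36) and -2.04 (SE 0.30), in the same order of RNAs. The day 14 values rest on day 7 as a link between slides 2 and 3, with 1 day 7 array on slide 3. Among the 14953 bright RNAs with a flat day 3, 14 stood at least 1.5 lower at day 7 than at day 0 within slide 2, and these 3 are among them. The rule chose the 3 on contrasts that include these same arrays, so the values are a description and carry no test.

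**Figure D2:**
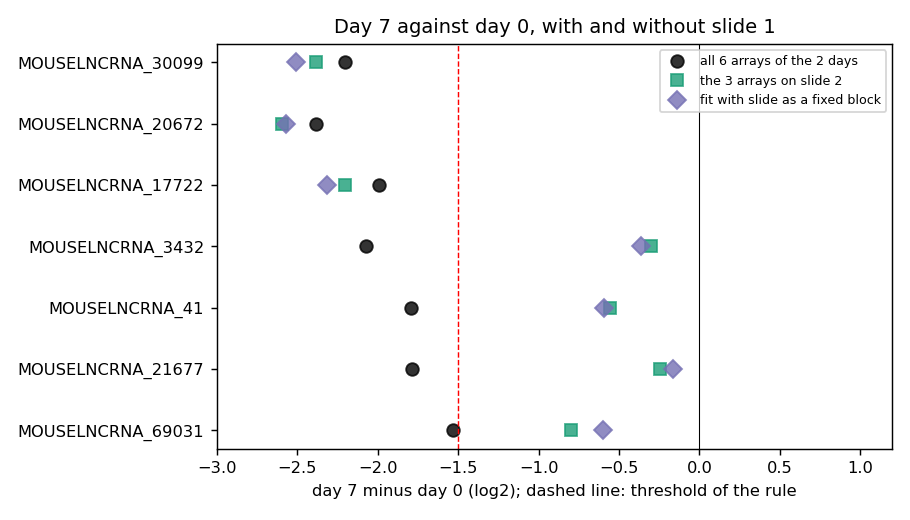
Day 7 minus day 0 on the log2 scale for each RNA, over all 6 arrays of both days (circles), over the 3 of them on slide 2 (squares) and in a fit with slide as a fixed block (diamonds), with the rule's threshold of -1.5 dashed. The upper 3 RNAs stayed at -2.20 or lower within slide 2, and the lower 4 lay between -0.80 and -0.25.

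MOUSELNCRNA_3432 had the lowest day 14 mean relative to day 0 and the widest split between slides. Its log2 signal was 10.22, 10.03 and 7.58 at day 0, 10.07, 10.11 and 7.74 at day 3, 7.05, 7.32 and 7.24 at day 7, and 6.78, 6.82 and 7.01 at day 14. The third array of day 0 and of day 3, both on slide 2, lay within 1 log2 unit of the day 7 arrays and more than 2 below the slide 1 arrays of their own day. The day 7 mean of 7.20 ± 0.14 stood against a day 0 mean of 9.28 ± 1.47 (SD, n = 3 each), a difference of -2.07. Within slide 2, day 7 minus day 0 was -0.30.

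MOUSELNCRNA_41 was the brightest of the 7 at day 0. Its log2 signal was 10.98, 11.04 and 9.28 at day 0, 10.63, 10.76 and 9.09 at day 3, 8.46, 8.65 and 8.81 at day 7, and 7.96, 8.24 and 8.24 at day 14. The slide 2 arrays of day 0 and day 3 were again the low ones of their day, and each still lay above every later array. Day 7 minus day 0 was -1.79 over all arrays and -0.55 within slide 2.

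MOUSELNCRNA_21677 had a log2 signal of 10.62, 10.84 and 8.69 at day 0, 10.91, 10.74 and 8.53 at day 3, 7.92, 8.48 and 8.41 at day 7, and 7.75, 7.67 and 7.91 at day 14. Its slide 2 array of day 3 lay next to the slide 2 arrays of day 7, a difference of -0.09 for day 7 minus day 3. For day 7 minus day 0 the difference was -1.79 over all arrays and -0.25 within slide 2.

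MOUSELNCRNA_69031 had a log2 signal of 9.63, 9.58 and 8.69 at day 0, 9.55, 9.45 and 7.99 at day 3, 7.52, 7.81 and 7.97 at day 7, and 7.67, 7.72 and 7.55 at day 14. On slide 2, day 3 minus day 0 was -0.69, day 7 minus day 0 was -0.80 and day 7 minus day 3 was -0.11. On slide 1, day 3 minus day 0 was -0.10.

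In the fit of the deposited values with slide as a fixed block, the day 7 minus day 0 estimates of these 4 RNAs were negative and smaller than the rule's threshold. That of MOUSELNCRNA_21677 was little larger than its standard error. Day 7 minus day 0 was -0.37 for MOUSELNCRNA_3432 (SE 0.12), -0.60 for MOUSELNCRNA_41 (SE 0.13), -0.16 for MOUSELNCRNA_21677 (SE 0.14) and -0.60 for MOUSELNCRNA_69031 (SE 0.16). Day 14 minus day 0 was -0.54 (SE 0.17), -0.91 (SE 0.19), -0.30 (SE 0.20) and -0.48 (SE 0.24), in the same order of RNAs. The rule used these contrasts, so they carry no test.

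Slide 1 supplied most of the arrays behind the day 0 and day 3 means and none at the later days, so the rule favours RNAs that are bright on slide 1. The difference between slides is therefore given as a description of the 7, with no test, and it was computed after the split had been seen. Over the whole table, a limma fit on the scaled scanner signals with slide as a fixed block beside day called 37.6% of the 62803 probes different between slides 2 and 1, and 20.8% lower on slide 2. The 4 RNAs described last are among those lower on slide 2 and the other 3 are not, and nothing is read from that count.

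MOUSELNCRNA_3432 had a slide 2 minus slide 1 difference of -2.47 in that fit (SE 0.10). It was -2.16 for MOUSELNCRNA_21677 (SE 0.12), -1.64 for MOUSELNCRNA_41 (SE 0.10) and -1.22 for MOUSELNCRNA_69031 (SE 0.13). The other 3 had positive differences, 0.40 for MOUSELNCRNA_30099 (SE 0.24), 0.19 for MOUSELNCRNA_20672 (SE 0.19) and 0.38 for MOUSELNCRNA_17722 (SE 0.16).

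The 4 RNAs were dimmer on slide 2 within day 0 and within day 3. In the deposited values, slide 2 minus slide 1 was -2.55 at day 0 and -2.35 at day 3 for MOUSELNCRNA_3432, and -2.04 and -2.30 for MOUSELNCRNA_21677. It was -1.73 at day 0 and -1.60 at day 3 for MOUSELNCRNA_41, and -0.92 and -1.51 for MOUSELNCRNA_69031. Among the 14953 bright RNAs with a flat day 3, the 5th to 95th percentiles of this difference were -0.79 to 0.36 at day 0 and -0.72 to 0.45 at day 3. In both days 245 of them, or 1.64%, were lower on slide 2 by at least 0.9, the 4 RNAs included, and 2 were higher by that much. At a size of 1.5 there were 13, with MOUSELNCRNA_3432, MOUSELNCRNA_41 and MOUSELNCRNA_21677 among them, and none was higher. Both of these sizes were chosen after the values were seen. Slide held different pools of mice as well as different arrays, so pool and slide cannot be told apart, and the part of the lower share of spots above background on slide 2 was not tested.

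**Figure D3:**
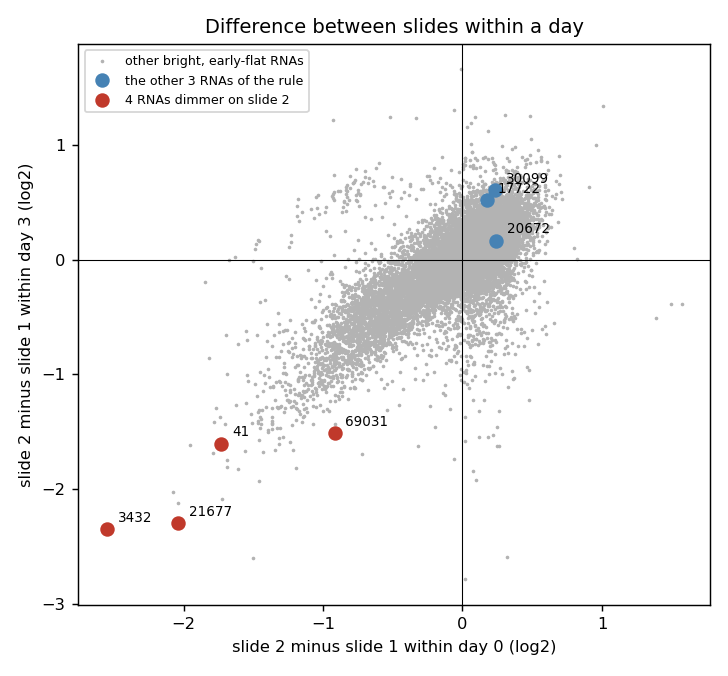
Slide 2 minus slide 1 on the log2 scale within day 0 (horizontal) and within day 3 (vertical) for the 14953 bright RNAs with a flat day 3, in grey, with the 7 RNAs of the rule in colour. The 4 red RNAs lie at the far lower left, from -0.92 to -2.55 at day 0, and the 3 blue RNAs lie above 0 on both axes.

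Other probes with similar sequence were read for the same differences. MOUSELNCRNA_89043, which matches MOUSELNCRNA_21677 at 94.4% of 54 bases, missed the rule only by its day 0 mean of 8.90. Its slide 2 minus slide 1 difference was -2.06 at day 0 and -2.38 at day 3, and within slide 2 day 7 minus day 0 was -0.12. Cross-hybridisation between these 2 probes was not tested. Bright probes with fewer matching bases did not share the pattern: MOUSELNCRNA_89552 (91.1% of 45 bases) and MOUSELNCRNA_63814 (92.9% of 42 bases) stood between 14.9 and 15.5 in every day's mean. Their slide 2 minus slide 1 differences were -0.02 and 0.05 at day 0 and -0.27 and -0.07 at day 3. Cross-hybridisation with these much brighter probes was not tested either. MOUSELNCRNA_86974, the fourth similar probe, was not well above background on any array.

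MOUSELNCRNA_3432 had 10 similar probes, 5 on the same strand and 5 on the opposite one. The 5 same-strand probes were lower on slide 2 by differences of -1.43 to -0.22 at day 0 and -1.15 to -0.06 at day 3. MOUSELNCRNA_54151 had the widest of these, with -1.43 and -1.15, at a day 0 mean of 9.37. The differences were -0.97 and -0.81 for MOUSELNCRNA_13121 and -0.22 and -0.06 for MOUSELNCRNA_11660, at day 0 means of 12.8 and 14.8. Of the 5 opposite-strand probes, MOUSELNCRNA_50440 was not well above background on any array. The other 4 had differences of -0.21 to 0.53 at day 0 and 0.04 to 0.84 at day 3. No probe similar to MOUSELNCRNA_41, MOUSELNCRNA_30099, MOUSELNCRNA_69031 or MOUSELNCRNA_17722 was found.

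**Figure D4:**
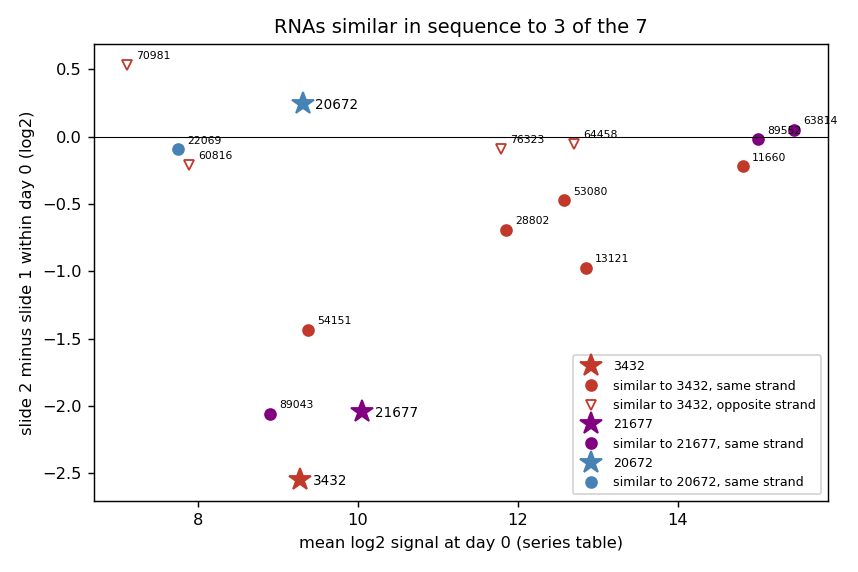
Slide 2 minus slide 1 within day 0 (log2, vertical) against the mean log2 signal at day 0 (horizontal) for 3 of the 7 RNAs (stars) and the probes similar to each in sequence that were well above background on all 12 arrays. Filled circles are probes on the same strand and open triangles are probes on the opposite strand, and the same-strand probes similar to MOUSELNCRNA_3432 lie between -1.43 and -0.22.

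The rule set no threshold on day 14 against day 7, although it bounded both days against day 0, so their means were among the values it used. The contrast was fitted on the scaled scanner signals of all 12 arrays, with 1 mean per day, and 9.96% of the 62803 probes were called, 5.61% higher and 4.35% lower. Of the 7 RNAs, 1 was called, and nothing is read from that count.

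MOUSELNCRNA_20672 was called higher at day 14 in this fit, with day 14 minus day 7 of 0.82 (SE 0.18, limma adjusted p = 0.0154). This RNA also had the lowest day 7 mean relative to day 0 of the 7. The rule used that difference, so the call is not independent of how the RNA was chosen. On these scanner signals its day 14 arrays read 7.58, 7.75 and 7.70, against 6.92, 6.44 and 7.22 at day 7, so all 3 lay above. The call ended with slide as a fixed block (0.76, limma adjusted p = 0.131) and without day 14 replicate 2 (0.78, limma adjusted p = 0.0616) or replicate 3 (0.80, limma adjusted p = 0.0511). Only slide 3 held both days, so the block difference is the same as among slide 3 arrays alone (0.76). It rests on the 1 day 7 array of that slide. MOUSELNCRNA_22069, its overlapping probe, was also called higher at day 14, with a mean of 6.51 ± 0.09 against 6.01 ± 0.16 at day 7 (SD, n = 3 each) and a difference of 0.51 (SE 0.13, limma adjusted p = 0.0315). With slide as a fixed block it was 0.56 (SE 0.15, limma adjusted p = 0.0692).

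The other 6 RNAs were not called, and their standard errors show what could be seen. Day 14 minus day 7 was 0.46 for MOUSELNCRNA_17722 (SE 0.19, limma adjusted p = 0.172) and -0.02 for MOUSELNCRNA_30099 (SE 0.24, limma adjusted p = 0.978). For the 4 RNAs split by slide the standard errors were 0.38 to 0.72, since the split within day 0 and day 3 enters the shared spread. Their differences were -0.37 for MOUSELNCRNA_3432, -0.52 for MOUSELNCRNA_41, -0.52 for MOUSELNCRNA_21677 and -0.13 for MOUSELNCRNA_69031. With slide as a fixed block the standard errors of these 4 were 0.13 to 0.18, and none was called. The differences were then -0.18, -0.33, -0.13 and 0.15 in the same order, and they rest on the 1 day 7 array of slide 3.

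**Figure D5:**
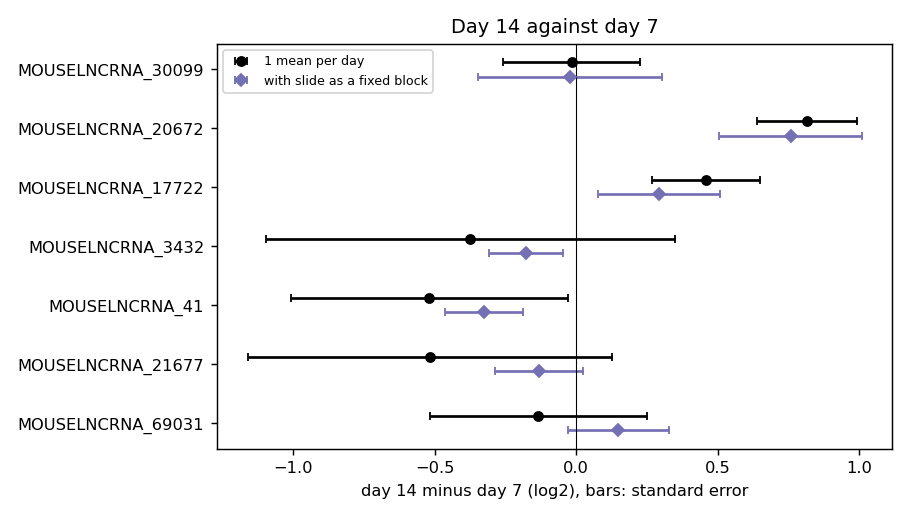
Day 14 minus day 7 (log2) with its standard error for each RNA, in the fit with 1 mean per day (black) and with slide as a fixed block (purple). MOUSELNCRNA_20672 stood at 0.82 and 0.76, and the error bars of the lower 4 RNAs were shorter with the block.

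The 7 RNAs shared little sequence. No pair had more than 11 bases in common in a run. GC content was 35.0% for 5 of them and 45.0% for MOUSELNCRNA_69031 and MOUSELNCRNA_20672, beside a median of 41.7% over all probes tested. Among the bright RNAs with a flat day 3 the median was also 41.7%, and the 5th and 25th percentiles were both 35.0%. The polyadenylation hexamers AATAAA and ATTAAA, which lie near the ends of many transcripts, were searched on both strands. MOUSELNCRNA_3432 and MOUSELNCRNA_41 held ATTAAA and MOUSELNCRNA_20672 held AATAAA, so 3 of 7 held either. The share was 27.3% over all probes tested and 32.2% among the bright RNAs with a flat day 3. Spots of a probe printed in duplicate differed on an array with an SD of 0.00 to 0.33 log2 units (median 0.06), and MOUSELNCRNA_41 had a single spot.

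Over the 12 arrays, which share slides and pools, the log2 signals of the 4 RNAs split by slide correlated at 0.97 to 0.99 with each other. Those of the other 3 correlated at 0.91 to 0.96 with each other and at 0.63 to 0.77 with the 4. These are descriptions of RNAs chosen for one pattern of days. Grouping them by their slide split on these same arrays favours higher correlation within a group, so nothing is read from it. The probes outside the rule most like the median of the 7 over the 12 arrays were MOUSELNCRNA_90184 (r = 0.992), MOUSELNCRNA_86838 (r = 0.989) and MOUSELNCRNA_70112 (r = 0.989). As 4 of the 7 are split by slide, this median, centred on day 0, is split too (0.33, 0.28 and -0.61 on the day 0 arrays). The 3 probes were lower on slide 2 within a day, which follows from picking them by likeness to it. The differences were -0.29 at day 0 and -0.47 at day 3 for MOUSELNCRNA_90184. Within slide 2, day 7 minus day 0 was -0.68 to -0.43 for the 3 probes. Their day 0 and day 7 means were 12.97 and 12.32, 8.59 and 7.49, and 7.83 and 6.83, in the same order, short of the rule's size.

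At the edges of the rule, MOUSELNCRNA_30099 was the dimmest RNA inside at a day 0 mean of 9.12, and MOUSELNCRNA_89043 was the nearest outside at 8.90. For the size of the day 3 difference, MOUSELNCRNA_17722 lay inside at 0.43 and MOUSELNCRNA_27245 outside at 0.55. For day 7 minus day 0, MOUSELNCRNA_69031 lay inside at -1.53 and MOUSELNCRNA_46045 outside at -1.46. For day 14 minus day 0, MOUSELNCRNA_17722 lay inside at -1.53 and MOUSELNCRNA_80844 outside at -1.46.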

How the data were processed

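RNA of 12 pools was amplified, labelled with Cy3 and hybridised to 1-colour Agilent arrays, per the labels' protocols. The authors used Agilent Feature Extraction to read spot intensity from the scans: the file headers name version 10.7.1.1, and version 10.7 stands in the submitters' processing notes. Values in the series matrix were deposited as log2 signals. All its columns had a median of 6.42 and near-equal quartiles, and how it was normalized is not given in the sources used here.

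The RNAs were chosen on the series table. For tests, the log2 processed intensity of repeated spots was averaged, without control and outlier spots, and each array was scaled to its 75th percentile. The 62803 probes tested passed the background test on every array of some day. A mean for each day was fitted with limma 3.58.1 (R 4.3.3) over 12 arrays, and calls were made at an adjusted p below 0.05 by Benjamini-Hochberg. Similar probes were found with BLAST 2.17.0 at an E value of at most 0.001. Named RNAs are all 7 members, the probes nearest each threshold, similar probes and the 3 most correlated probes. The members, the tests and the lists were chosen with earlier results of these data known, and the slide difference was computed after its values were seen. Gene and cell type marker lists were not run, since 0 probe IDs matched a name. The labels do not say that the pools of different days with the same number share mice. The number of arrays limits the precision. In the fit without slide, p-values measure the spread between pools, which includes slides where a day's arrays lay on different slides. All arrays of day 14 lay on the same slide and most of those of day 7 on another. The day 14 minus day 7 estimate of that fit can therefore hold a slide difference that its spread does not measure.

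The alternatives were other normalizations, background corrections and filters, slide and replicate number as blocks, and leaving out each array.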

Additional observations from a re-analysis of the deposited data

How the results depend on the processing

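The number of the 7 RNAs that met the thresholds was 3 when slide entered as a fixed block, 3 among slide 2 arrays (where day 14 has none) and 3 without the 4 arrays of slide 1, each time MOUSELNCRNA_30099, MOUSELNCRNA_20672 and MOUSELNCRNA_17722. Such a count over the 7 can only fall. Over all probes, 7, 17 and 7 met the thresholds in these settings, so probes outside the 7 entered. After normexp background correction it was 4, and these were MOUSELNCRNA_30099 and 3 of the RNAs split by slide (MOUSELNCRNA_3432, MOUSELNCRNA_41 and MOUSELNCRNA_21677), while MOUSELNCRNA_20672 and MOUSELNCRNA_17722 missed it. Leaving out 1 array at a time gave 1 to 7 of the 7 RNAs, the lower counts being 1 when day 0 replicate 3 was left out (MOUSELNCRNA_30099), 3 for day 0 replicate 2 and 4 for day 3 replicate 3. Over all probes, 52, 4 and 10 met the thresholds in these settings, in the same order. The median day 7 minus day 0 of the 7 was -0.60 with slide as a block, -0.80 within slide 2 and -0.92 without slide 1 (as reported -1.99, leave-one-out -2.30 to -1.60). The median day 14 minus day 0 was -0.91 with slide as a block and -1.14 without slide 1 (as reported -2.19, leave-one-out -2.22 to -1.88). No slide holds both day 14 and day 0, so that within-slide value was not run.

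For day 14 against day 7, 1 of the 7 was called, and 0 with slide as a fixed block or within slide 3, where day 7 has 1 array and the spread comes from day 14 alone. Leaving out 1 array gave 0 to 1, with 0 without day 14 replicate 2 or 3. Over all probes 6254 were called, 3477 with slide as a block, 820 within slide 3 and 3529 to 5643 without 1 array. Slide 2 against slide 1 called 23595 probes, and 12069 to 23443 without 1 array, the fewest when day 3 replicate 3 was left out and 15615 when day 0 replicate 3 was. The cause of these changes was not tested.

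By the scanner labels, same-numbered arrays of day 7 and day 14 correlated at -0.06, -0.30 and -0.06 in their deviations from the day means. With day 7 replicates 2 and 3 exchanged, as in the deposited columns, the last 2 of these were 0.14 and 0.16. Whether the numbers pair the days could therefore not be read. A fit with the replicate block, which used the scanner labels, called 1 of the 7 and 5754 probes, with MOUSELNCRNA_20672 at a limma adjusted p of 0.0167. Of the values recomputed, 297 were labelled the same, 12 moved, 16 were weaker and 1 was stronger. These include settings with the deposited values and with quantile-normalized scanner signals, which are near repeats of each other. The same label covered medians that moved by less than the spread, counts within a set fold range and differences whose call did not change. A difference called in neither fit kept that label even if its sign changed. For MOUSELNCRNA_69031, day 14 minus day 7 went from -0.13 to 0.15 with slide as a fixed block.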
